A study of Mus musculus with 12 samples.

Results

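Histone acetylation enzymes and bromodomain readers form a module of 34 genes: 11 zinc-dependent histone deacetylases, 6 sirtuins, 7 acetyltransferases, and 10 bromodomain proteins of the BRD and BAZ families. Members were found by gene symbol among the 19935 genes that had at least 1 probe set with a single symbol in the platform annotation. All 34 were measured, by 36 probe sets, and no member was removed by a filter on low values. Expression was measured in the striatum of 2-month-old male Swiss-Albino mice, with RNA of 4 animals pooled for each of 12 Affymetrix Mouse Gene 1.0 ST arrays. In the ButMorphine group (3 arrays) each of 6 induction trials on alternate days combined sodium butyrate at 300 mg/kg with morphine at 20 mg/kg. In the SalMorphine group (3 arrays) a saline injection preceded the same dose of morphine, and in the Saline group (6 arrays) both induction injections were vehicle. The challenge injection came 7 days after the last trial, and striata were sampled 1 h after the challenge. Both morphine groups were challenged with morphine. For the Saline group the labels disagree: its source name gives a saline challenge, whereas the protocol text gives every animal morphine. Set against Saline, a morphine group may thus show the acute effect of the morphine challenge besides that of the repeated injections, or that of the repeated injections alone. No strain, allele or transgene differed between groups.

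Acetyl groups on histone lysines are added by acetyltransferases and removed by deacetylases, and bromodomains bind the acetylated lysines and recruit remodelling and transcription complexes. Class I deacetylases are mainly nuclear, sirtuins need NAD and work in nucleus, cytoplasm or mitochondria, and class IIa enzymes shuttle between cytoplasm and nucleus with neuronal activity. Butyrate is a short-chain fatty acid that inhibits the activity of class I and class IIa deacetylases. In striatal neurons histone acetylation is known to change with dopamine signalling and with repeated exposure to addictive drugs. The arrays measured the RNA of these enzymes and readers, not their activity and not acetylation.

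The authors' values are centred logarithms, read here as log2 differences from a baseline. The 6 Saline arrays form 3 mirror-image pairs (1 with 2, 3 with 4, 5 with 6) whose values cancel to 0. Each gene's Saline mean and median are therefore 0, and only 3 of its Saline values are independent. Omitting 1 Saline array unbalances its pair, so the Saline mean is pulled off 0 and differences from Saline shift. Calls gained or ended by such a single omission below are therefore no measure of stability. Omitting a whole pair does not cause this shift. The Saline ranges hold no spread between pairs and are narrowed by it. Over all genes the SD within an array was 0.05 to 0.083 in Saline, against 0.11 to 0.148 in the morphine groups. Lying outside a Saline range below is read with this limit. The main p-values, intervals and Saline SDs below still count every Saline array as a replicate. Centring removed each gene's level, so the tissue label could not be checked against marker levels, and a marker at 0 cannot be recognised. The rounding of the stored numbers still gives a coarse class: 18 of 34 members (52.9%) were stored at 8 to 16, against 24.4% of all genes, and the other 16 at 4 to 8. Hdac1 and Hdac4 had a probe set in each class and were placed in the lower one. Array medians over all genes lay between -0.0172 and 0.0121. The sources used here do not say whether the pools came from separate cohorts, and the p-values cover only the spread among these pools. The summed choroid plexus list moved with the groups: its 8 measured markers averaged 0.96 to 1.26 in ButMorphine and 1.30 to 1.54 in SalMorphine, against -0.14 to 0.14 in Saline. The 8 endothelial markers averaged -0.26 to -0.16 in ButMorphine and -0.33 to -0.25 in SalMorphine, against -0.05 to 0.05 in Saline. The 8 thalamic and septal neuron markers averaged -0.05 to 0.47 in ButMorphine and 0.11 to 0.80 in SalMorphine, against -0.07 to 0.07 in Saline. The 8 microglia markers averaged -0.22 to -0.16 in ButMorphine and -0.27 to -0.18 in SalMorphine, against -0.08 to 0.08 in Saline. The part of these marker differences in the members' values was not tested. The SalMorphine arrays also differed among themselves. In array 2 the 5 cortical excitatory neuron markers averaged -0.72, against 0.11 and -0.26 in SalMorphine arrays 1 and 3. Of these markers Slc17a7, Tbr1 and Neurod6 had -1.22, -1.19 and -0.97 in array 2, while Cux2 had -0.21 and Rorb 0.003. For the thalamic and septal markers SalMorphine array 1 was the lowest, at 0.11, against 0.61 and 0.80 in arrays 2 and 3. In bulk striatum fewer cells of a type and less RNA per cell cannot be told apart.

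The members' RNA differed little between the groups. In SalMorphine against Saline, which asks what morphine without butyrate did, the challenge perhaps included, 1 member passed an adjusted p of 0.05, against 2.66% of all genes. It was Baz1a, which was lower, as were 1.29% of all genes. In ButMorphine against Saline, the same question where butyrate accompanied the repeated morphine, 0 members passed limma's test, against 2.48% of all genes. In ButMorphine against SalMorphine, which asks what butyrate added, 0 members passed, against 0% of all genes. At an unadjusted p under 0.05 the counts were 4 members (15.5% of all genes passed) in SalMorphine against Saline, 5 members (17% of all genes) in ButMorphine against Saline and 1 member (8.62% of all genes) in ButMorphine against SalMorphine. With both morphine groups averaged and set against Saline, 2 members passed the adjusted test, against 4.59% of all genes. They were Hdac8, which was higher (2.69% of all genes were), and Baz1a, which was lower (1.91%). In that comparison 5 members had an unadjusted p under 0.05, against 19.1% of all genes. The members' shares were near these backgrounds. All comparisons with Saline share the same 6 arrays.

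**Figure D1:**
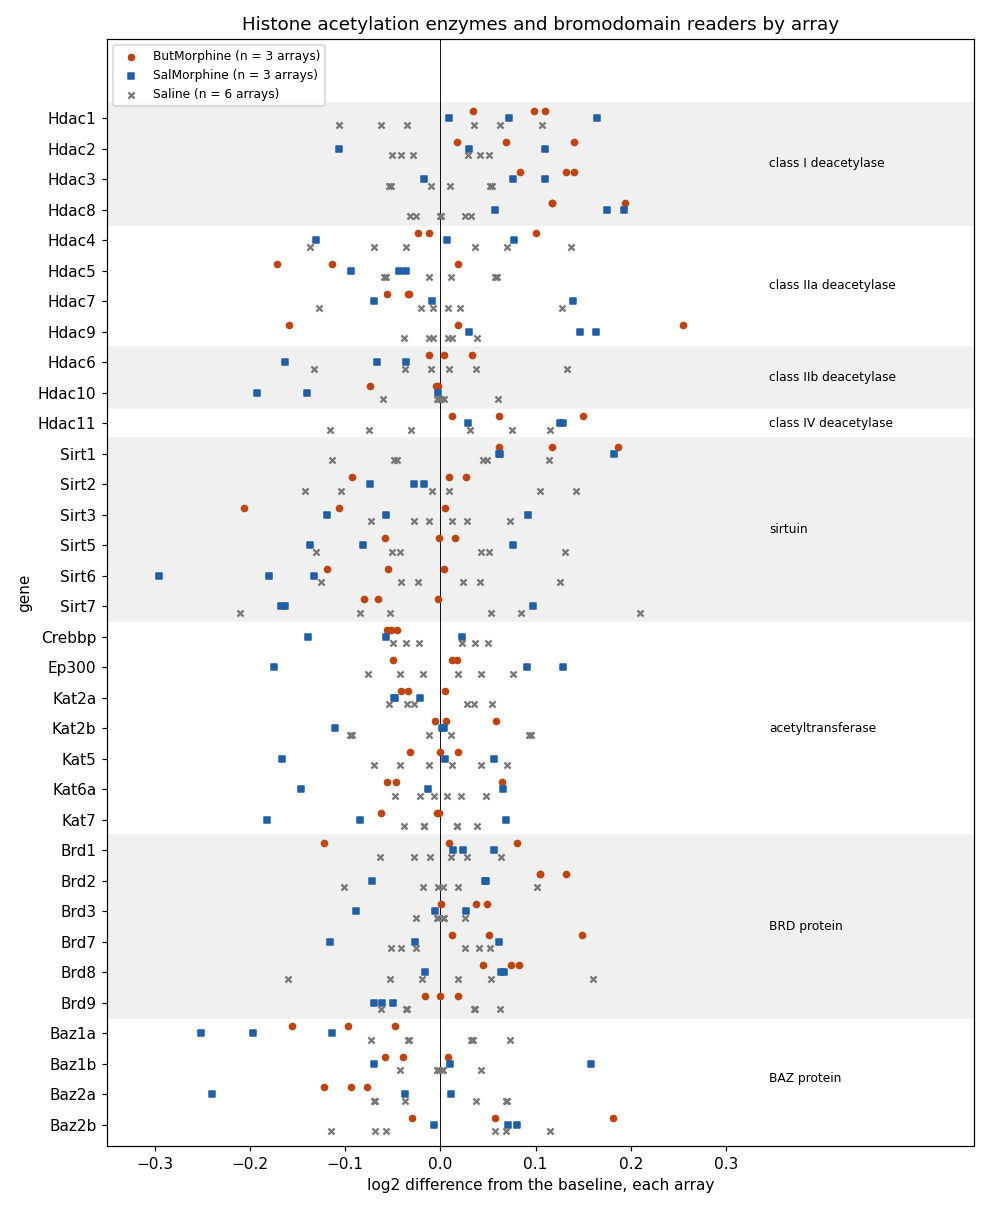
Log2 difference from the baseline (x axis) of each member (y axis, grouped by role) in every array; circles are ButMorphine, squares SalMorphine and crosses Saline. The Hdac8 points of both morphine groups lie above all 6 Saline points, and the SalMorphine points of Baz1a and Sirt6 lie below all of theirs.

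Baz1a, which encodes the ACF1 subunit of ISWI nucleosome-remodelling complexes, was measured by probe set 10400357. It had values of -0.05, -0.16 and -0.10 in ButMorphine and -0.25, -0.20 and -0.11 in SalMorphine, against -0.07 to 0.07 in Saline. All 3 SalMorphine arrays were below every Saline array, and 1 ButMorphine array was within the Saline range. Baz1a fell by 0.19 in SalMorphine (0.878-fold, SE 0.0426, adjusted p = 0.0366), with means of -0.19 ± 0.07 in SalMorphine (SD, n = 3) and 0 ± 0.05 in Saline (n = 6). Its difference between ButMorphine and Saline was -0.10 (adjusted p = 0.251). Between ButMorphine and SalMorphine it was 0.09 (interval -0.02 to 0.19, adjusted p = 0.665), so a difference in response between the morphine groups was not shown. With both morphine groups averaged it was -0.14 (adjusted p = 0.0341). The SalMorphine call ended with quantile normalization (adjusted p = 0.492), with eBayes trend and robust (0.0754), with array weights, in a fit of only the groups compared, and without any 1 of the mirror-image Saline pairs (0.112 to 0.131). It also ended when ButMorphine array 3, SalMorphine array 1 or 2, or any 1 of Saline arrays 2 to 6 was left out, with adjusted p-values of 0.0511 to 0.084. ButMorphine array 3 is outside this comparison, and without it the difference stayed at -0.1875. With Saline arrays 2 to 6 omitted singly, the unbalanced pair moved the difference to between -0.1729 and -0.1943. The averaged call ended under the same quantile and eBayes settings (adjusted p = 0.304 and 0.0689), without any 1 Saline pair (0.12 to 0.136), and without ButMorphine array 2 or 3, SalMorphine array 1, or Saline array 2, 3, 4 or 5 (0.0504 to 0.081).

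Hdac8 encodes a class I deacetylase that acts outside the large corepressor complexes and removes an acetyl group from the cohesin ring. Its probe set 10606088 gave 0.19, 0.12 and 0.12 in ButMorphine and 0.17, 0.06 and 0.19 in SalMorphine, against -0.03 to 0.03 in Saline. Every morphine array was above every Saline array, whose range the centring narrows, and 1.95% of all genes showed that pattern. Averaged over both morphine groups Hdac8 rose by 0.14, or 1.10-fold (SE 0.0298, adjusted p = 0.0165). This call ended with quantile normalization and without any 1 of the Saline pairs. In the single comparisons the difference was 0.14 for ButMorphine (adjusted p = 0.06) and 0.14 for SalMorphine (adjusted p = 0.0604). Without SalMorphine array 2 both passed the test, at adjusted p = 0.0247 for ButMorphine and 0.0202 for SalMorphine, where the difference was 0.18. The ButMorphine difference stayed at 0.14. That array is outside the comparison and entered only through the shared spread and the adjustment over all genes. The morphine groups differed from each other by 0.001 (interval -0.09 to 0.09, adjusted p = 0.997).

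Sirt6, a chromatin-bound sirtuin with roles in DNA repair and glucose metabolism, had the largest difference from Saline among the members in SalMorphine. Probe set 10371256 read -0.06, 0.004 and -0.12 in ButMorphine and -0.13, -0.30 and -0.18 in SalMorphine, against -0.13 to 0.13 in Saline. All 3 SalMorphine arrays lay below the Saline range, whereas the ButMorphine arrays lay within it. The SalMorphine difference of -0.20 (SE 0.0536) did not pass the test (adjusted p = 0.0669). It passed when SalMorphine array 1 was left out (adjusted p = 0.0418) and with each mirror-image Saline pair counted once (adjusted p = 0.0487). It also passed without Saline array 3 (adjusted p = 0.0405), but the unbalanced pair then moved the difference to -0.228. That pass is therefore no measure of stability. Without SalMorphine array 2 the difference was -0.16 (adjusted p = 0.182). Sirt6 also had the largest difference among members between ButMorphine and SalMorphine, at 0.15 (interval 0.01 to 0.28, adjusted p = 0.535), or 0.10 without SalMorphine array 2.

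**Figure D2:**
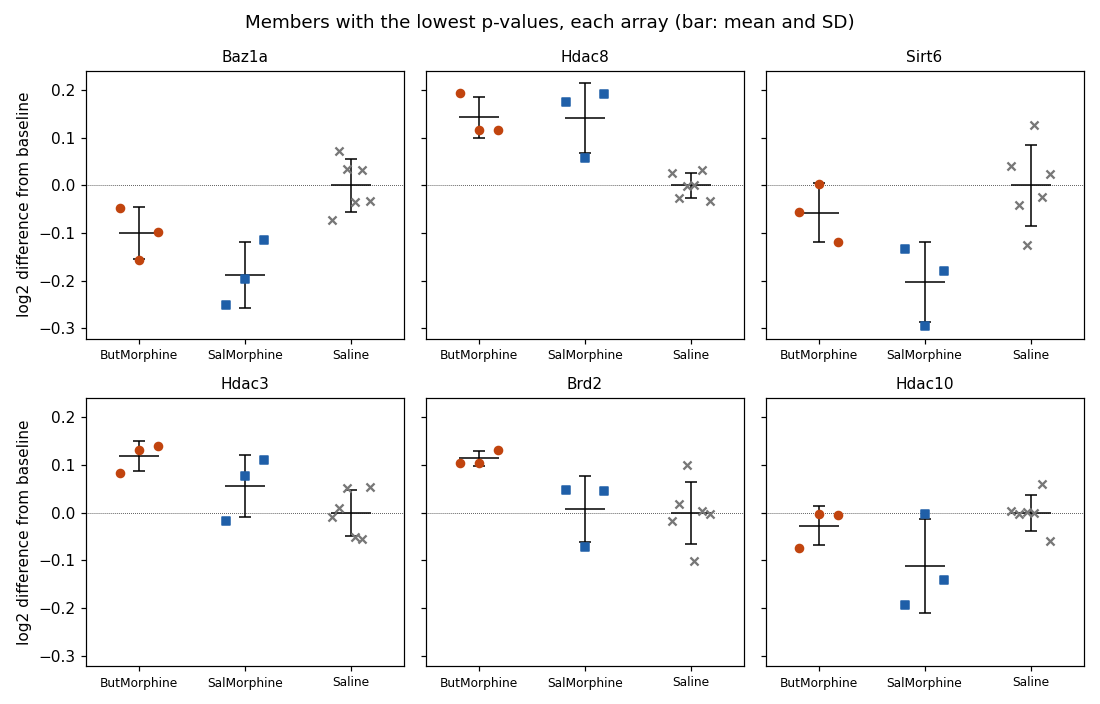
Log2 difference from the baseline (y axis) in every array of the members with the lowest p-values in the single comparisons with Saline. Points are arrays and bars the group means with SD (n = 3, 3 and 6). Hdac8 sits at about the same height in both morphine groups, while Sirt6 and Brd2 have ButMorphine points above all SalMorphine points.

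The start-site windows of Hdac8 and Sirt6 are shown because Hdac8 was called with both morphine groups averaged, Sirt6 had the largest SalMorphine difference without being called, and their windows differ in composition. No window was available for Baz1a. The RefSeq table of build GRCm38.p6 gives 300-base windows, from 250 bases before to 50 after a start. It held 39 windows for 28 of the 34 members. The Hdac8 window is at chrX:102505109-102505408 and the first Sirt6 window at chr10:81627517-81627816, both on the minus strand and printed 5′ to 3′ with CG dinucleotides in capitals.
Hdac8: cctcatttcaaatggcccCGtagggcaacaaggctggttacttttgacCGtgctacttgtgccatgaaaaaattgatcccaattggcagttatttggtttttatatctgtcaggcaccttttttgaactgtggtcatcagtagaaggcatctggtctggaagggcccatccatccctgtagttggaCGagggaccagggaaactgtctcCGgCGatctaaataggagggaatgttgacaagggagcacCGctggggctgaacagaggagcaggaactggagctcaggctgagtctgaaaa
Sirt6: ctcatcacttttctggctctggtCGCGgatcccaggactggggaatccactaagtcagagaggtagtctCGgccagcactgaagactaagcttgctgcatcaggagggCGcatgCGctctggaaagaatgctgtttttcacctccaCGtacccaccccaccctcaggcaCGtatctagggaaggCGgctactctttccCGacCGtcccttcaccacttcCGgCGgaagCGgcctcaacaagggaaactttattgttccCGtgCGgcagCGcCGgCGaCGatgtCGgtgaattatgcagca
The Hdac8 window has 6 CG dinucleotides and a GC content of 49.7%, and the Sirt6 window has 20 and 57.3%. A letter search on both strands found CCAAT on each strand of the Hdac8 window and TATAAA on the opposite strand, and none of the 5 searched motifs in the first Sirt6 window. The second Sirt6 window, at chr10:81627273-81627572 on the same strand, has 21 CG dinucleotides and a GC content of 61.3%, and holds GGGCGG. The members' windows as a whole were rich in CG. Their median GC content was 62.0%, against 52.7% over all 32851 RefSeq windows, and their median ratio of observed to computed CG was 0.82, against 0.38. All the RefSeq windows together belong to 27025 genes, a wider set than the 19935 genes tested here. With limits of 50% GC and a ratio of 0.6, 28 of 39 windows (71.8%) counted as CG-rich, against 33.3% of all windows. GGGCGG, the GC box, was in 61.5% of members' windows, against 35.7% of all windows. TGACG, found in cyclic AMP response elements, was in 30.8%, against 20.8% of all windows. CCAAT was in 33.3%, against 37.4%. AGAACA, found in glucocorticoid response elements, was in 15.4%, against 19.0%. TATAAA was in 7.7%, against 13.6%. Matches are letters only, and no value here bears on binding.

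The other class I deacetylases are the catalytic subunits of the large corepressor complexes. Hdac3, the enzyme of the NCoR complex, had 0.08, 0.13 and 0.14 in ButMorphine and -0.02, 0.08 and 0.11 in SalMorphine, against -0.05 to 0.05 in Saline. Its ButMorphine arrays were all above the Saline arrays, with a difference of 0.12 (adjusted p = 0.133), while the SalMorphine difference was 0.06 (adjusted p = 0.543). Hdac1, which serves the Sin3, NuRD and CoREST complexes, averaged 0.08 ± 0.04 in ButMorphine and 0.08 ± 0.08 in SalMorphine, against 0 ± 0.08 in Saline. Its 2 probe sets gave similar means, 0.089 and 0.072 in ButMorphine and 0.092 and 0.071 in SalMorphine. Hdac2, its close relative, averaged 0.08 ± 0.06 in ButMorphine and 0.01 ± 0.11 in SalMorphine, with single SalMorphine arrays from -0.11 to 0.11. All 4 class I members had means above Saline in both morphine groups, with medians of 0.10 in ButMorphine and 0.07 in SalMorphine, although 0 of 4 passed the adjusted test in either comparison. The median over all genes was 0.006 in ButMorphine and -0.004 in SalMorphine, and 10689 and 9535 of 19935 genes were above Saline in the same groups.

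Class IIa enzymes, which repress MEF2 targets until phosphorylation exports them from the nucleus, showed no shared direction. Hdac5, studied in the striatum for its part in responses to cocaine, had -0.17, -0.11 and 0.02 in ButMorphine and -0.04, -0.09 and -0.04 in SalMorphine, against -0.06 to 0.06 in Saline. The ButMorphine difference was -0.09 (adjusted p = 0.338). Hdac9 varied most within ButMorphine, with 0.26, -0.16 and 0.02, while SalMorphine read 0.03, 0.16 and 0.15 and Saline -0.04 to 0.04. Hdac7 averaged -0.04 ± 0.01 in ButMorphine and 0.02 ± 0.11 in SalMorphine. For Hdac4 the 2 probe sets disagreed. The brighter-class one averaged -0.107 ± 0.029 in ButMorphine and -0.094 ± 0.104 in SalMorphine, and the other 0.15 ± 0.108 and 0.063 ± 0.108 in the same groups. The mean of the 2 for Hdac4 was 0.02 in ButMorphine and -0.02 in SalMorphine, and hides this disagreement.

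Both class IIb members had higher means in ButMorphine than in SalMorphine, without passing the test. Hdac6, the cytoplasmic tubulin deacetylase, had 0.004, 0.03 and -0.01 in ButMorphine and -0.07, -0.16 and -0.04 in SalMorphine, against -0.13 to 0.13 in Saline. The ButMorphine arrays were all above the SalMorphine arrays, and the difference was 0.10 (adjusted p = 0.687). Hdac10, a polyamine deacetylase, had -0.07, -0.002 and -0.005 in ButMorphine and -0.19, -0.002 and -0.14 in SalMorphine, against -0.06 to 0.06 in Saline. Its SalMorphine difference was -0.11 (adjusted p = 0.205), and without SalMorphine array 2 it was -0.17 (adjusted p = 0.0429). Hdac11, the class IV enzyme, averaged 0.07 ± 0.07 in ButMorphine and 0.09 ± 0.06 in SalMorphine, against 0 ± 0.09 in Saline.

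Among the sirtuins, 5 of 6 had means below Saline in each morphine group, and none passed the adjusted test. Of all 19935 genes, 9246 were below Saline in ButMorphine and 10400 in SalMorphine. The exception was Sirt1, the nuclear sirtuin known for deacetylating PGC-1α and p53, with 0.19, 0.12 and 0.06 in ButMorphine and 0.18, 0.06 and 0.06 in SalMorphine, against -0.11 to 0.11 in Saline. Its morphine arrays were all positive but overlapped the Saline range, and the differences were 0.12 in ButMorphine (adjusted p = 0.248) and 0.10 in SalMorphine (adjusted p = 0.37). The mitochondrial Sirt3 averaged -0.10 ± 0.11 in ButMorphine and -0.03 ± 0.11 in SalMorphine. Sirt5, which removes succinyl groups in mitochondria, averaged -0.01 ± 0.04 in ButMorphine and -0.05 ± 0.11 in SalMorphine. Sirt2, abundant in myelinating cells, averaged -0.02 ± 0.06 in ButMorphine and -0.04 ± 0.03 in SalMorphine. The nucleolar Sirt7 averaged -0.05 ± 0.04 in ButMorphine and -0.08 ± 0.15 in SalMorphine, and its Saline arrays alone ranged from -0.21 to 0.21.

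The acetyltransferases differed little from Saline in ButMorphine, with a median absolute difference of 0.019 over the 7 members, against 0.0488 over all genes. Crebbp, the coactivator that CREB recruits, had -0.05, -0.06 and -0.05 in ButMorphine and 0.02, -0.14 and -0.06 in SalMorphine, against -0.05 to 0.05 in Saline. Its paralogue Ep300 had -0.05, 0.01 and 0.02 in ButMorphine and 0.09, -0.17 and 0.13 in SalMorphine, against -0.08 to 0.08 in Saline. SalMorphine array 2 was the lowest of its group for all 7 acetyltransferases. Kat2a and Kat2b, the GCN5 and PCAF enzymes of the SAGA-type complexes, averaged -0.04 and -0.04 in SalMorphine. Kat5 (TIP60), Kat6a (MOZ) and Kat7 (HBO1), of the MYST family, had -0.17, -0.15 and -0.18 in SalMorphine array 2, and 0.06, 0.07 and 0.07 in SalMorphine array 1. The median over the 7 was -0.147 in SalMorphine array 2, against 0.057 and -0.013 in SalMorphine arrays 1 and 3. The same array was lowest of its group for 20 of all 34 members, against 30.8% of all genes, and its member median was -0.066, against an all-gene median of 0.0097. The part of the cortical marker difference of this array in these values was not tested.

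Of the 6 BRD bromodomain proteins, 5 had higher means in ButMorphine than in SalMorphine, as had 11344 of 19935 genes, and none passed the adjusted test. Brd2, a BET protein that binds acetylated histone H4, had 0.10, 0.11 and 0.13 in ButMorphine and 0.05, -0.07 and 0.05 in SalMorphine, against -0.10 to 0.10 in Saline. The ButMorphine arrays were above all others. The difference was 0.11 from Saline (adjusted p = 0.195) and 0.11 from SalMorphine (interval -0.0005 to 0.21, adjusted p = 0.579), or 0.07 from SalMorphine without its array 2. Brd7, a subunit of the PBAF remodelling complex, had 0.15, 0.01 and 0.05 in ButMorphine and -0.03, -0.12 and 0.06 in SalMorphine, and these overlapped. Brd9, of the non-canonical BAF complex, had 0.02, -0.0006 and -0.02 in ButMorphine and -0.07, -0.06 and -0.05 in SalMorphine, within the Saline range of -0.06 to 0.06 except in SalMorphine array 1. Brd1, a scaffold of HBO1 complexes, Brd3, a second BET protein, and Brd8, of the TIP60 complex, had mean differences between ButMorphine and SalMorphine of -0.04, 0.05 and 0.03. Of the other BAZ proteins, Baz2a, which silences ribosomal genes, had -0.12, -0.09 and -0.08 in ButMorphine and 0.01, -0.24 and -0.04 in SalMorphine, against -0.07 to 0.07 in Saline. Its ButMorphine arrays were all below Saline (difference -0.10, adjusted p = 0.392). Baz1b, of the WICH complex, averaged -0.03 ± 0.03 in ButMorphine and 0.03 ± 0.12 in SalMorphine, and Baz2b 0.07 ± 0.11 in ButMorphine and 0.05 ± 0.05 in SalMorphine.

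**Figure D3:**
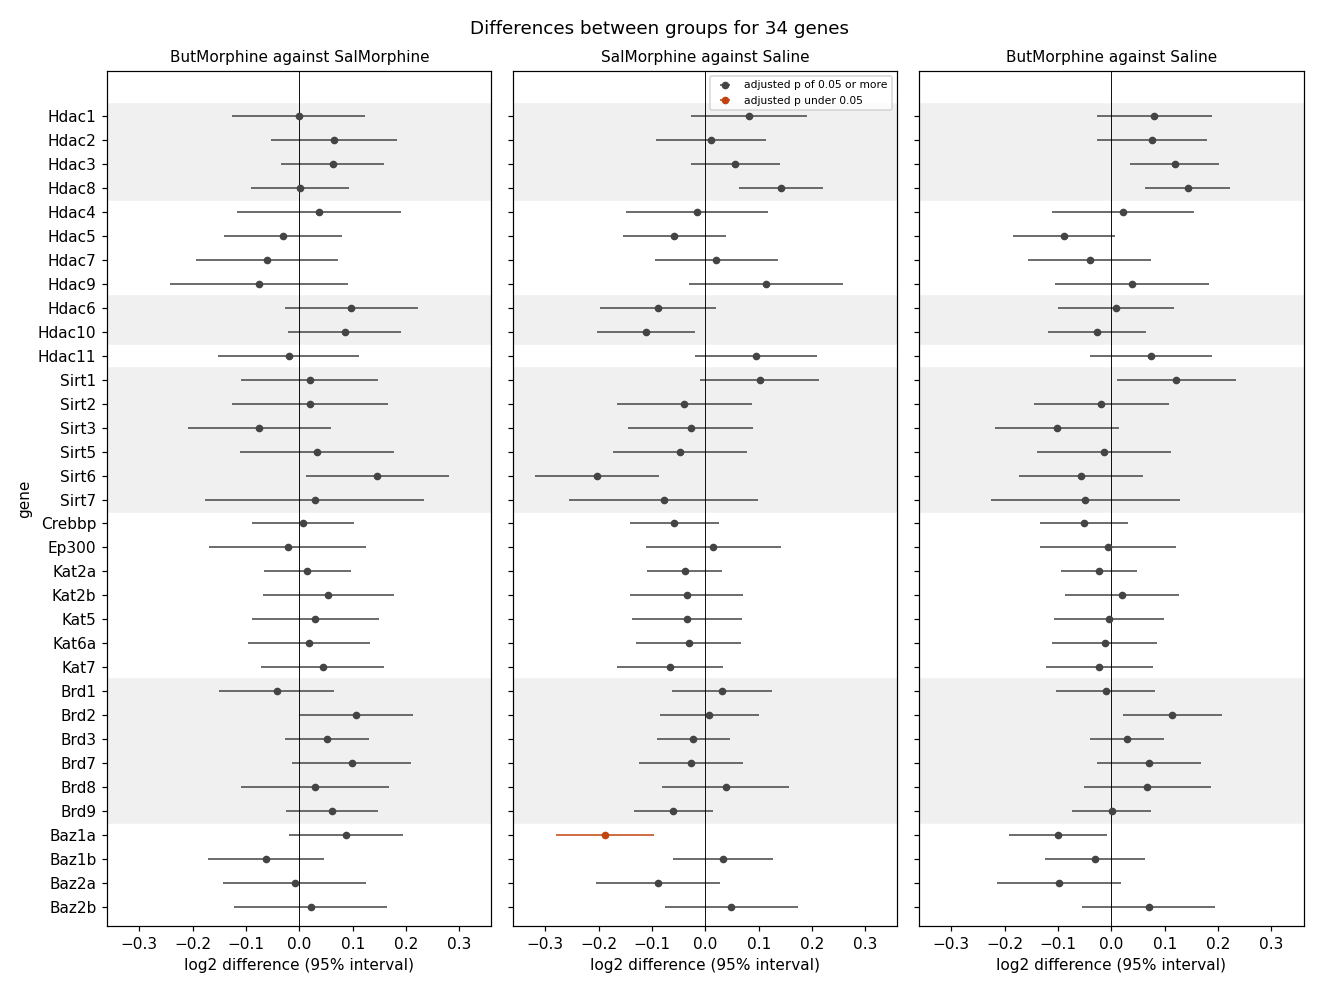
Log2 difference with its 95% interval (x axis) of each member (y axis) in ButMorphine against SalMorphine, SalMorphine against Saline and ButMorphine against Saline; shading separates the roles. The intervals lie between 0.802-fold and 1.214-fold, and the orange point, Baz1a in SalMorphine against Saline, is the only one past the adjusted threshold.

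The intervals give a range for the difference of each member taken singly, without adjustment for the number of members. They count every Saline array as a replicate and cannot allow for the unknown baseline of the morphine arrays. They therefore do not bound what the arrays could have missed. For ButMorphine against SalMorphine the 95% intervals of the 34 members ran from -0.242 (Hdac9) to 0.28 (Sirt6), or 0.845-fold to 1.214-fold. Over the single comparisons with Saline the lowest bound was 0.802-fold (Sirt6 in SalMorphine) and the highest 1.196-fold (Hdac9 in SalMorphine), on the scale of array signal. The difference was under 0.1 for 32 members in ButMorphine against SalMorphine, against 81.3% of all genes, and for 28 members in ButMorphine against Saline, against 77.7% of all genes, and also in SalMorphine against Saline, against 79.7%. Between ButMorphine and SalMorphine, 24 of 34 members had a difference above 0, against 11344 of 19935 genes, and the median was 0.025, against 0.011 over all genes. Without SalMorphine array 2, an alternative added after seeing the data, 16 of 34 members were above 0, with a median of -0.0009, against 12336 genes and a median of 0.0177. Without SalMorphine array 1 it was 25 members, with a median of 0.0336, against 11084 genes. Without SalMorphine array 3 it was 24 members, with a median of 0.033, against 10450 genes. With all arrays, ButMorphine and SalMorphine did not overlap for 4 members, all higher in ButMorphine (Sirt6, Brd2, Hdac6 and Brd9). The share over all genes was 10.7%, or 7.75% counting the higher ones. Groups did not overlap for 4 members in ButMorphine against Saline, against 11.7% of all genes, and for 3 in SalMorphine against Saline, against 8.2%. The 8 striatal projection neuron markers averaged -0.029 to 0.033 in ButMorphine and -0.146 to -0.105 in SalMorphine, against -0.055 to 0.055 in Saline. The part of this marker difference in the members' differences was not tested.

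Genes that work with the members were counted in 4 lists, beside the 2.48% of all genes that passed the adjusted test in ButMorphine against Saline and the 2.66% in SalMorphine against Saline. Of 30 measured corepressor subunits, 1 rose in each morphine group: Sap30, a Sin3 complex subunit. It had 0.56, 0.38 and 0.31 in ButMorphine and 0.39, 0.20 and 0.33 in SalMorphine, against -0.15 to 0.15 in Saline, so both groups lay above Saline. The difference was 0.42 in ButMorphine (adjusted p = 0.00517) and 0.30 in SalMorphine (adjusted p = 0.0318), and 0.11 between the groups (adjusted p = 0.73). The ButMorphine call for Sap30 ended with quantile normalization (adjusted p = 0.0549). Its SalMorphine call ended with that (0.27), with eBayes trend and robust (0.0725), without Saline pair 1 and 2 or 3 and 4 (0.141 and 0.127), and without SalMorphine array 1 or 3 or any 1 of Saline arrays 1 to 4, with adjusted p-values of 0.0568 to 0.12. Of 34 partners of acetyltransferases, 1 fell in each group: Taf6l, a core subunit of the SAGA-type complexes. It had -0.23, -0.21 and -0.16 in ButMorphine and -0.15, -0.21 and -0.26 in SalMorphine, against -0.09 to 0.09 in Saline. Taf6l fell by 0.20 in ButMorphine (adjusted p = 0.0237) and by 0.21 in SalMorphine (adjusted p = 0.019), below every Saline array. Both Taf6l calls ended with quantile normalization (adjusted p = 0.0906 in ButMorphine and 0.246 in SalMorphine), with eBayes trend and robust (0.0723 and 0.0606 in the same groups), and without Saline pair 1 and 2 or 3 and 4 (0.0787 to 0.124). The ButMorphine call also ended without ButMorphine array 1 or 2 or Saline array 1 or 4 (adjusted p-values of 0.0544 to 0.112), and the SalMorphine call without SalMorphine array 3 (adjusted p = 0.099). The median of the corepressor list was 0.004 in ButMorphine and -0.048 in SalMorphine, and of the acetyltransferase partners 0.001 and -0.014 in the same groups.

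Of 18 genes that supply acetyl-CoA, NAD or butyrate, Acss3 rose in each morphine group. It encodes a mitochondrial acyl-CoA synthetase that activates short-chain acids, propionate above all. It had 0.40, 0.30 and 0.31 in ButMorphine and 0.37, 0.51 and 0.51 in SalMorphine, against -0.04 to 0.04 in Saline. The Acss3 difference was 0.34 in ButMorphine (adjusted p = 0.0004) and 0.46 in SalMorphine (adjusted p = 2.5e-05), and -0.13 between the groups (adjusted p = 0.454). Slc16a1, the transporter that carries lactate, ketone bodies and butyrate across the blood-brain barrier, had -0.21, -0.26 and -0.26 in ButMorphine and -0.02, -0.17 and -0.20 in SalMorphine, against -0.12 to 0.12 in Saline. It fell by 0.24 in ButMorphine (adjusted p = 0.0284), where all arrays were below Saline, and its SalMorphine difference was -0.13 (adjusted p = 0.236). The call ended with quantile normalization (adjusted p = 0.304), with eBayes trend and robust (0.0634), without Saline pair 3 and 4 or 5 and 6 (0.111 and 0.101), and without any 1 ButMorphine array or without Saline array 1, 4 or 6 (adjusted p-values of 0.0511 to 0.112). Between ButMorphine and SalMorphine the Slc16a1 difference was -0.11 (adjusted p = 0.631). Slc16a1 is rich in brain endothelium, and 4 of 8 endothelial markers passed the adjusted test as lower in each morphine group, with the summed levels given above. Means were below Saline for 7 of these 8 in ButMorphine and for 8 in SalMorphine. Acss3 stood beside the choroid plexus markers, of which 7 of 8 passed as higher in ButMorphine and 8 of 8 in SalMorphine. All 8 had means above Saline in both groups. In either direction 2.48% of all genes passed in ButMorphine and 2.66% in SalMorphine. The markers' part in the differences of Slc16a1 and Acss3 was not tested. The median of this list was -0.020 in ButMorphine and 0.0004 in SalMorphine. Of 21 other bromodomain and YEATS readers, 0 passed limma's adjusted test in any comparison, while 4 in ButMorphine and 4 in SalMorphine had an unadjusted p under 0.05 against Saline, beside 17% and 15.5% of all genes in the same comparisons, with a list median of 0.014 in each. The lowest p-values were for Yeats4 (0.23) and Brwd3 (0.23) in ButMorphine, at adjusted p = 0.0606 and 0.0715, and for Atad2 (-0.16) and Mllt1 (-0.16) in SalMorphine, at adjusted p = 0.105 and 0.122. Yeats4 passed in ButMorphine without SalMorphine array 2 (adjusted p = 0.0323), which is outside that comparison and left the difference at 0.23. Atad2 and Mllt1 passed in SalMorphine without SalMorphine array 1 (adjusted p = 0.0235 and 0.0327). Between ButMorphine and SalMorphine, no gene of the 4 lists passed, and Atad2 had the lowest p (0.20, adjusted p = 0.341).

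**Figure D4:**
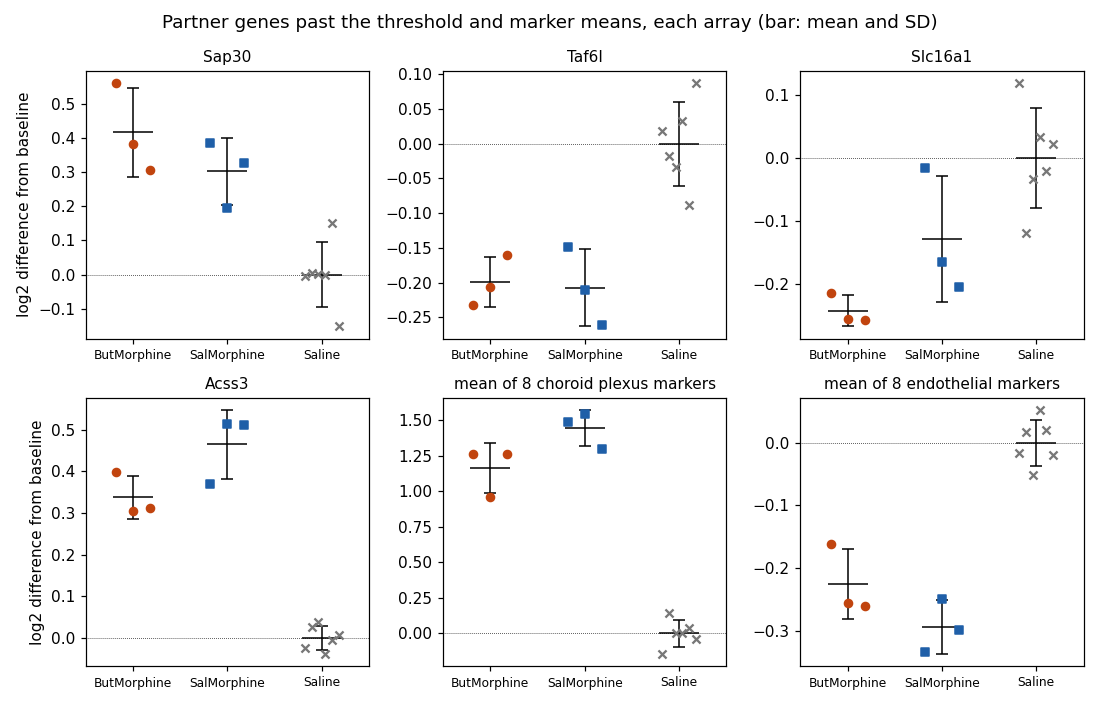
Log2 difference from the baseline (y axis) in every array of Sap30, Taf6l, Slc16a1, Acss3 and the mean of the choroid plexus and of the endothelial markers, each panel on its own scale; points are arrays and bars the group means with SD (n = 3, 3 and 6). Sap30 and Acss3 lie above and Taf6l below the Saline arrays in both morphine groups, whereas Slc16a1 lies below Saline in ButMorphine and overlaps it in SalMorphine. The choroid plexus mean lies above and the endothelial mean below Saline in both morphine groups.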

How the data were processed

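Pooled striatal RNA was run on Affymetrix Mouse Gene 1.0 ST arrays, per the labels' protocols. The authors deposited 1 table of 28815 rows, of centred log values, used as log2 because their rounding fits log2 array values. The sources used here name no log base, background correction, normalization or summarisation. The baseline of each morphine array is unknown. Of the rows, 21780 had 1 gene symbol, 1605 had several and 5430 had none; the last 2 kinds were left out. Probe sets were averaged per gene (19935 genes, 998 with more than 1). All 34 member symbols matched the RefSeq table by Entrez ID.

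The comparisons used limma 3.58.1 under R 4.3.3 (lmFit, eBayes, 12 arrays, 3 group means, 9 residual degrees of freedom), two-sided, with Benjamini-Hochberg adjustment over all genes and a threshold of 0.05. The fit counted every Saline array as a replicate, although only 3 Saline values per gene are independent. Its 9 residual degrees of freedom are therefore too many. The main p-values may be too low and the intervals too narrow. The number of arrays limits the precision. The procedure was tested on simulated data in which each morphine array was centred on a Saline pair. The baseline of the real morphine arrays is unknown, so that test does not cover it. All members are named; values per array are given for called members, the 5 lowest p-values of each comparison and further members chosen after their values were seen. From each partner list the called genes or else the lowest p-values are named. Members and lists were chosen with earlier results of these data known. Alternatives were other normalizations, rows, eBayes settings, array weights, groups, a block, thresholds and arrays left out.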

Additional observations from a re-analysis of the deposited data

How the results depend on the processing

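Counts of members past the adjusted threshold were recomputed under each alternative. In SalMorphine against Saline the main count of 1 became 0 with quantile normalization, with eBayes trend and robust, with only the groups compared, and with the replicate block. It became 2 with mirror Saline pairs counted once and 3 at an adjusted p under 0.1. It ranged from 0 to 2 over fits without 1 array or 1 Saline pair. With array weights the 1 call was Hdac8 (adjusted p = 0.0376), not Baz1a. In ButMorphine against Saline the main count of 0 became 1, each time Hdac8, with array weights, with only the groups compared and at an adjusted p under 0.1, and ranged from 0 to 1 over fits without 1 array. In ButMorphine against SalMorphine it was 0 under every setting run. With both morphine groups averaged the main count of 2 became 0 with quantile normalization, and with the replicate block, 1 with eBayes trend and robust, and 3, Sirt6 added (adjusted p = 0.0341), with mirror pairs counted once. It ranged from 0 to 2 over fits without 1 array or 1 Saline pair, and was 0 without each of the 3 Saline pairs. Among the 18 members stored at 8 or more these 2 counts are 0 because Baz1a and Hdac8 are stored at 4 to 8, which says nothing about stability. The replicate block also ended the calls of Sap30 in each group (adjusted p = 0.058 in ButMorphine and 0.164 in SalMorphine), Taf6l in each group (0.247 and 0.236) and Slc16a1 in ButMorphine (0.192). Baz1a in SalMorphine against Saline passed in 8 of 24 alternatives (adjusted p 0.0303 to 0.492) and Hdac8 with both groups averaged in 18 of 23 (0.0043 to 0.231). Acss3 passed in 24 of 24 alternatives in SalMorphine and in 23 of 24 in ButMorphine, where the replicate block gave adjusted p = 0.0953. No sign turned, and of 500 values of single members under alternatives, 453 stayed on their side of the threshold, 34 lost and 13 gained the call. Most of the 500 came from members not called in the comparison concerned, so they could not lose a call. All 34 losses fell on the main calls, which were Baz1a in SalMorphine and averaged, and Hdac8 averaged. The averaged Baz1a call passed in 10 of 23 alternatives (adjusted p 0.0092 to 0.315). Over all genes the calls in SalMorphine against Saline numbered 531, and 75 with quantile normalization, 231 with eBayes trend and robust, 54 with the replicate block, 152 to 205 without a Saline pair, 1053 without SalMorphine array 1 and 240 without SalMorphine array 3. In ButMorphine against Saline they numbered 495, and 100, 230 and 51 under the same 3 settings, 161 to 204 without a Saline pair, 917 with array weights and 988 with only the groups compared. With both groups averaged they numbered 916, and 194, 524 and 83 under those 3 settings, and 2299 with mirror pairs counted once. The cause was not tested. The labels do not say whether a replicate number is shared between groups. Deviations of same-numbered ButMorphine and SalMorphine arrays correlated at -0.122, -0.266 and -0.203. These values cannot decide whether the arrays were paired, because the baseline of each morphine array is unknown and centring could have removed a shared deviation. The block leaves Saline arrays 4 to 6 out of the contrasts. It also sets both arrays of each mirror-image Saline pair in different blocks, although their values were centred together. Counting mirror pairs once tests against 0 without the baseline's error. Omitting 1 Saline array pulls the Saline mean off 0, so calls gained or ended that way do not measure stability. This holds for Baz1a, Sirt6, Sap30, Taf6l and Slc16a1, and for the counts over fits without 1 array. For the averaged comparison only the groups compared could not be run as another fit. The alternatives for single partner genes were added after seeing the data.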
